A study of Arabidopsis thaliana with 4 samples.

Results

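The genes described here are 53 transcription factors of the AP2/ERF family of Arabidopsis thaliana, listed by locus and sorted into the ethylene response factor (ERF) subgroups VII, VIII, IX and X, the dehydration-responsive element binding (DREB) genes with the C-repeat binding factors (CBF), and the cytokinin response factors (CRF). They are 53 of the 33664 features in the deposited files, and the rule that lists them uses no level, although the list was drawn up with earlier results of these data known. Poly(A) RNA sequencing gave their transcript levels in whole Col-0 seedlings labelled as trm4b-4 and in wild type of the same ecotype, with 2 libraries of each. All were 9 days old and came from MS plates kept at 23 ± 2 °C with a light period of 16 h and a dark period of 8 h, and no treatment is labelled for any of them. The allele is spelled trm4b-4 in the titles and tm4b-4 in the genotype field. TRM4B encodes an RNA methyltransferase that places 5-methylcytosine, and the labels do not say how the allele changes the gene. Nothing in the labels gives each library a culture of its own, so p-values rest on a spread between library pairs that may be purely technical.

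TRM4B (AT2G22400) was higher in the libraries labelled trm4b-4, at 86.3 and 87.1 FPKM, against 29.7 and 28.9 FPKM in wild type (log2 change 1.53, SE 0.0339, limma adjusted p = 2.4e-08). FPKM is the number of sequenced fragments divided by the gene's length and the library's total. The counted fragments were 21931590 and 23068982 in the libraries labelled trm4b-4 and 26390263 and 23782269 in wild type. Libraries of 1 genotype were close to each other, with a mean chi-square per gene of 1.59 between those labelled trm4b-4 and 1.72 within wild type, against 27.2 to 28.8 between genotypes. Photosynthesis markers of leaves were all higher in the libraries labelled trm4b-4 (6 of 6, or 5 with quantile normalization, summed levels 20475 and 20641.5 FPKM, against 16444 and 16440.3 FPKM in wild type), and the 6 root markers gave 1 higher and 2 lower (summed 1441.5 and 1440.0 FPKM, against 1735.5 and 1718 FPKM). Most of the root sum was the single gene PYK10, at 1386 and 1380 FPKM, against 1680 and 1662 FPKM in wild type. The gap in that sum is thus not one of root markers as a set. Of all 19027 genes tested, 19.2% were called higher and 15.1% lower at an adjusted p under 0.05. Regardless of a call, 39.4% lay above wild type in both libraries labelled trm4b-4 and 29.0% below. The floral gene AP3 and the seed storage genes SESA1 and SESA3 were listed at 0 in all 4 libraries. The other seed genes, CRA1, CRU3, OLEO1 and OLEO2, were higher in both libraries labelled trm4b-4 than in either of wild type, and the 6 seed genes summed to 6.46 and 6.86 FPKM, against 0.889 and 0.6025 FPKM in wild type. The 5 floral genes summed to 10.3 and 9.75 FPKM, against 15.5 and 14.9 FPKM. The part of these marker differences in the results that follow was not tested, and in whole seedlings fewer cells of a type and less RNA per cell cannot be told apart.

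All AP2/ERF proteins bind DNA through the AP2 domain. ERF proteins mostly recognise the GCC box of defence and ethylene-responsive genes, while DREB and CBF proteins recognise the dehydration-responsive or C-repeat element of cold and drought genes. Many of the genes are themselves switched on within minutes by wounding, touch, cold, pathogens or reactive oxygen, and others are held back or broken down through protein stability, as the oxygen-sensing members of group VII are.

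Transcripts of the family were less abundant in the libraries labelled trm4b-4, and group IX made up most of the gap. The 53 genes summed to 784 and 772 FPKM in libraries labelled trm4b-4, against 1661 and 1648.5 FPKM in wild type, a ratio of 0.470. Group IX summed to 170.0 and 175 FPKM, against 849 and 849.5 FPKM in wild type (ratio 0.203). Group VII summed to 268.5 and 263 FPKM, against 425.5 and 413 FPKM (ratio 0.6335), and group VIII to 123 and 119.5 FPKM, against 158 and 159.9 FPKM (ratio 0.763). The sums of every subgroup except group X lay apart between the genotypes. The DREB genes summed to 184 and 178 FPKM in libraries labelled trm4b-4 and 198 and 197 FPKM in wild type (ratio 0.916). RAP2.4 alone held 106 and 107 FPKM of the DREB sum, against 99.5 and 99.8 FPKM in wild type. Only the CRF genes and the little expressed group X summed higher in the libraries labelled trm4b-4, the CRF genes at 30.0 and 30.25 FPKM, against 21.8 and 22.0 FPKM (ratio 1.375), and group X at 8.10 and 7.46 FPKM, against 7.62 and 7.31 FPKM, where the 2 genotypes overlapped.

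**Figure D1:**
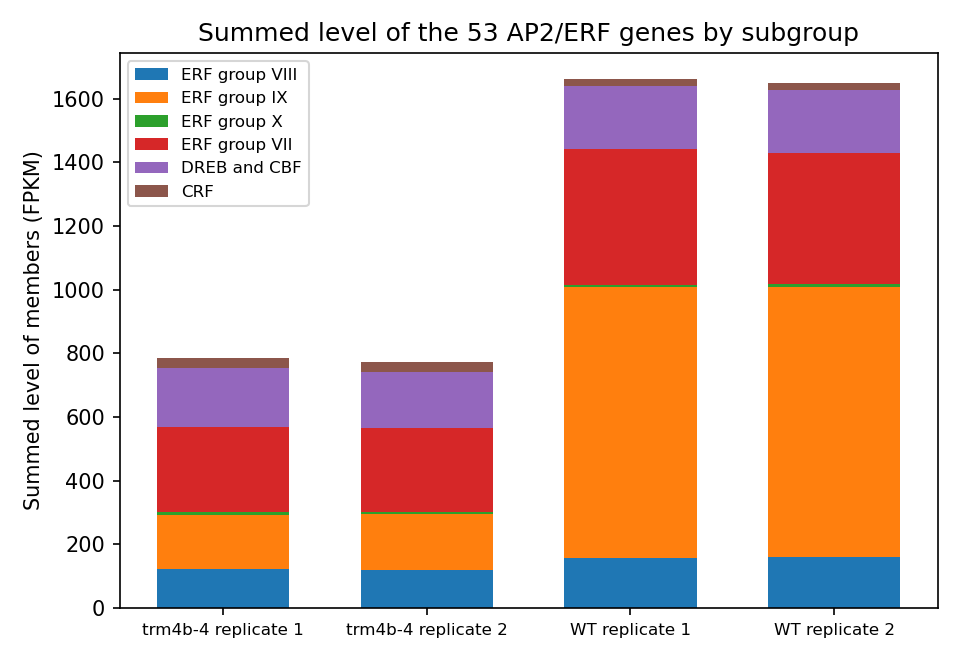
Summed level (FPKM, linear axis from 0) of the 53 genes in each library, stacked by subgroup, with the 2 libraries labelled trm4b-4 on the left and the 2 of wild type on the right. The stacks reach 784 and 772 FPKM in libraries labelled trm4b-4 and 1661 and 1648.5 FPKM in wild type, and the segment of group IX holds 170.0 and 175 FPKM against 849 and 849.5 FPKM.

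Gene by gene, 42 of the 53 reached 1 FPKM in at least 2 libraries and were tested with limma on log2(FPKM + 1), so log2 changes are on that scale and understate the change of low genes. At an adjusted p under 0.05, 21 were lower in the libraries labelled trm4b-4 (50% of those tested, against 15.1% of all 19027 genes tested) and 10 were higher (23.8%, against 19.2%), while 11 were not called. The 31 called genes of both directions compare with 34.3% of all genes tested. Median-of-ratios rescaling moved the calls over all genes to 2967 higher and 3339 lower, against 3648 and 2882 without it, and voom on recovered fragments to 3507 and 3789, whereas members were then 8 and 21, and 9 and 21. Changes shown to exceed 1.5-fold, by limma's treat test, were found for 12 lower members (28.6%, against 1.74% of all genes tested) and 1 higher member (2.38%, against 0.631%). The median log2 change was -0.15 over the tested members and 0.03 over all genes tested, and the median size of change regardless of sign was 0.50 and 0.14. Of all 53 genes, 28 lay below wild type in both libraries labelled trm4b-4 (29.0% of all genes tested did so), 16 lay above in both (39.4%), and 9 overlapped. These counts include the 11 members too low to test, whereas the shares are of tested genes only. Among the 50 genes of the transcriptome with the most negative log2 change, 7 were members. RRTF1, AT1G33760 and CBF1 were under 1 FPKM in both libraries labelled trm4b-4 and entered the test only through wild type. They could thus be called only as lower, and their calls are no sign of a direction. All are counted in the 21 lower members, and RRTF1 and AT1G33760 also in the 12 past 1.5-fold. They dropped out of the test when either wild-type library was left out.

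**Figure D2:**
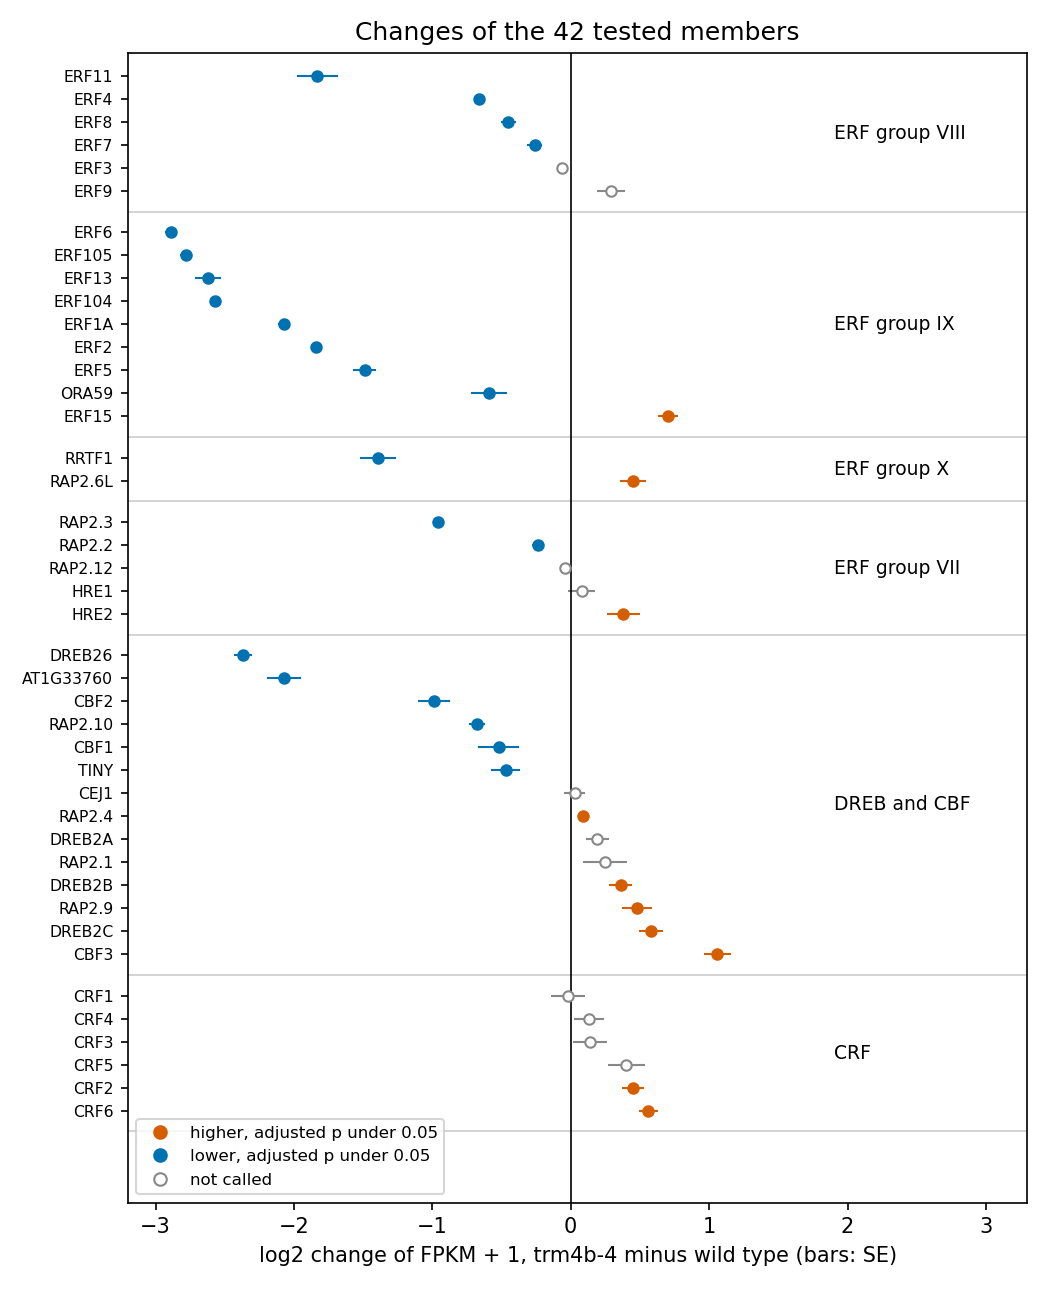
Log2 change of FPKM + 1 (trm4b-4 minus wild type, points, with the standard error as bars) for the 42 tested members, ordered by subgroup down the page, with orange for higher, blue for lower and open points for no call. The points of clades IXa and IXb lie between -2.89 and -1.49, while most CRF and DREB2 points lie at or above 0.

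Group IX had the largest fall in summed level of the 6 subgroups. It contains activators of the GCC box, in 3 clades. All 7 genes of clades IXa and IXb fell past 1.5-fold, against 1.74% of all genes tested, with a median log2 change of -2.57. The 4 genes of clade IXb, ERF5, ERF6, ERF104 and ERF105, summed to 91.0 and 93.25 FPKM in libraries labelled trm4b-4, against 569 and 571 FPKM in wild type (ratio 0.162). The 3 genes of clade IXa, ERF1A, ERF2 and ERF13, summed to 62.3 and 65.6 FPKM, against 265 and 265 FPKM (ratio 0.241). The 300 bases before the annotated starts of ERF6 (chr4:9754162-9754461, minus strand) and ERF104 (chr5:24767733-24768032, minus strand) are given because these genes had the most negative log2 change and the highest wild-type level among the 53. They are from the RefSeq TAIR10.1 genome and annotation, overlap no annotated exon, and are written 5′ to 3′ on the strand of the gene. Capitals mark a dehydration-responsive element core in ERF6 and, on the opposite strand, an evening element core in ERF104.
ERF6: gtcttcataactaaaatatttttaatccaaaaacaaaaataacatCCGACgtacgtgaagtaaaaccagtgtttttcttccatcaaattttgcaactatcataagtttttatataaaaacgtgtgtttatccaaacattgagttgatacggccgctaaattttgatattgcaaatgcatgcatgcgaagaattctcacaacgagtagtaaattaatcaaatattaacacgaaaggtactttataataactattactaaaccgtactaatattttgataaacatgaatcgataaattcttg
ERF104: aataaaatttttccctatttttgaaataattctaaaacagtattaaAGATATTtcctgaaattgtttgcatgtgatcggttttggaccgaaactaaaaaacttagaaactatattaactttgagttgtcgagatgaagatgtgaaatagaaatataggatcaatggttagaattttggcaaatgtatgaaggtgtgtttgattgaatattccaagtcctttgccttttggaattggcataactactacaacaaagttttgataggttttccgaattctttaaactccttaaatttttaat

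In clade IXb, ERF104 (AT5G61600), a substrate of the MAP kinase MPK6 in flagellin signalling, was at 53.4 and 51.9 FPKM in libraries labelled trm4b-4, against 317 and 316 FPKM in wild type. It was the highest of the 53 genes in wild type and 6.02-fold lower in the libraries labelled trm4b-4 (log2 change -2.57, SE 0.0263, adjusted p = 6.92e-10). There it stood beside RAP2.2, whose levels it overlapped, and below RAP2.3, RAP2.4 and RAP2.12. ERF6 (AT4G17490), which is phosphorylated by MPK3 and MPK6 and acts in defence and in growth under drought, was at 15.6 and 16.8 FPKM under the trm4b-4 label, against 127 and 126 FPKM in wild type, 7.82-fold lower (log2 change -2.89, SE 0.0413, adjusted p = 3.53e-09). Only 9 genes of the transcriptome, itself included, had a log2 change as low. ERF105 (AT5G51190), a factor of cold tolerance, was at 12.8 and 13.4 FPKM in the trm4b-4-labelled libraries and 94.2 and 98.1 FPKM in wild type, 7.34-fold lower (log2 change -2.78, adjusted p = 4.12e-09). Its whole annotated length of 965 bases lies under AT5G51180 on the opposite strand, which was at 14.9 and 13.7 FPKM in libraries labelled trm4b-4, against 16.4 and 15.9 FPKM in wild type. The strand setting of the counting is not given in the sources used here. ERF5 (AT5G47230), which acts with ERF6 in defence against fungi and in leaf growth, was at 9.19 and 11.2 FPKM in libraries labelled trm4b-4, against 30.1 and 30.5 FPKM in wild type, 2.97-fold lower (log2 change -1.49, adjusted p = 5.11e-06).

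In clade IXa, ERF1A (AT4G17500), an activator of GCC-box genes, was at 34.5 and 37.8 FPKM under the trm4b-4 label, against 153 and 156 FPKM in wild type, 4.275-fold lower (log2 change -2.07, SE 0.04395, adjusted p = 1.92e-08). ERF2 (AT5G47220), a related activator of jasmonate-responsive defence genes, was at 26.5 and 26.4 FPKM in the trm4b-4-labelled libraries and 98.0 and 96.0 FPKM in wild type, 3.67-fold lower (log2 change -1.84, adjusted p = 7.95e-09). The fold was widest for ERF13 (AT2G44840), which binds GCC boxes, at 1.32 and 1.35 FPKM in libraries labelled trm4b-4, against 14.1 and 12.6 FPKM in wild type, 10.0-fold lower (log2 change -2.62, SE 0.0913, adjusted p = 3.63e-07). All of these 7 genes lay below wild type in both libraries labelled trm4b-4, as did 29.0% of all genes tested. Some of them are neighbours, since ERF6 and ERF1A lie 5041 bases apart on chromosome 4 on opposite strands with no annotated gene between, and ERF2 and ERF5 lie 6924 bases apart on chromosome 5 with 2 genes between.

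Clade IXc, which holds the ethylene and jasmonate integrators, went in both directions. ERF15 (AT2G31230), a positive regulator of abscisic acid responses, rose, with 11.4 and 11.9 FPKM under the trm4b-4 label, against 7.08 and 6.48 FPKM in wild type (log2 change 0.70, SE 0.0732, adjusted p = 0.000196), and its call was kept in every alternative analysis. ORA59 (AT1G06160), an activator of the defensin PDF1.2, was at 5.24 and 3.82 FPKM in the trm4b-4-labelled libraries and 7.90 and 6.68 FPKM in wild type (log2 change -0.59, SE 0.133, adjusted p = 0.01005). With wild-type replicate 1 left out its log2 change was -0.49 and missed the threshold (adjusted p = 0.0588). It also missed it without a filter (0.0527) or a mean-variance trend (0.0528), at an unchanged log2 change. ERF1B (AT3G23240), a direct target of EIN3 in the ethylene pathway, had 1 and 0 fragments in the libraries labelled trm4b-4, against 7 and 5 in wild type, 10.8-fold fewer per counted fragment with an interval of 1.59 to 460.1 (95%, exact, counting error only). ERF14 (AT1G04370) had 0 and 0 fragments, against 2 and 1, and both genotypes were at or under the 3 fragments that a count of 0 allows.

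**Figure D3:**
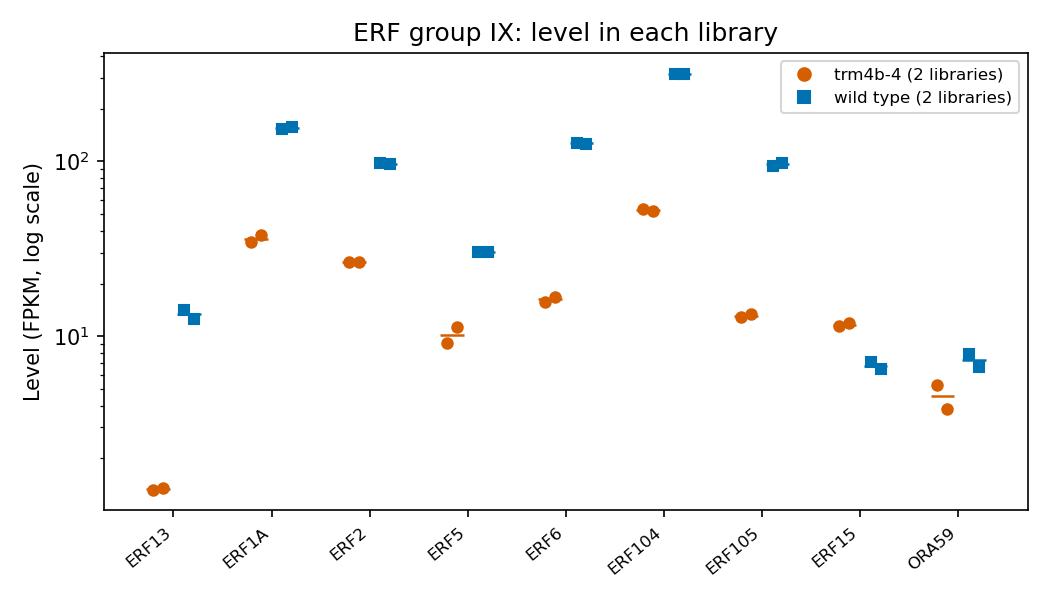
Levels (FPKM, log axis) of the group IX genes, with circles for the 2 libraries labelled trm4b-4 and, to their right, squares for the 2 of wild type. In clades IXa and IXb the circles lie below the squares for all 7 genes, by 2.97-fold for ERF5 to 10.0-fold for ERF13, whereas for ERF15 they lie above.

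Group VIII holds repressors that carry the EAR motif and act on the same GCC box. Of its 6 tested members 4 fell and none rose, against 15.1% and 19.2% of all genes tested, with a median log2 change of -0.35. ERF4 (AT3G15210), a repressor of ethylene, jasmonate and abscisic acid responses, was at 37.9 and 35.9 FPKM in libraries labelled trm4b-4, against 58.3 and 59.3 FPKM in wild type (log2 change -0.66, SE 0.0392, adjusted p = 7.93e-06). ERF8 (AT1G53170) was at 15.0 and 14.5 FPKM under the trm4b-4 label, against 20.2 and 20.75 FPKM in wild type (log2 change -0.45, adjusted p = 0.000335). ERF7 (AT3G20310), which represses abscisic acid responses, was at 19.6 and 18.1 FPKM in the trm4b-4-labelled libraries and 22.7 and 22.7 FPKM in wild type (log2 change -0.26, adjusted p = 0.00712). ERF11 (AT1G28370), a repressor of ethylene synthesis genes, had the widest difference in the group, at 0.844 and 1.25 FPKM in libraries labelled trm4b-4, against 5.42 and 7.14 FPKM in wild type, 6.0-fold lower (log2 change -1.83, SE 0.148, adjusted p = 4.72e-05). These 4 genes lay below wild type in both libraries labelled trm4b-4, as did 29.0% of all genes tested. ERF11 was the only one past 1.5-fold. The most abundant repressor after ERF4 in wild type was ERF3 (AT1G50640), at 43.7 and 45.1 FPKM under the trm4b-4 label, against 47.0 and 45.9 FPKM in wild type, with a log2 change of -0.06 and a 95% interval of -0.15 to 0.02 that leaves room only for a small difference (adjusted p = 0.222). ERF9 (AT5G44210), a repressor of defence genes, was at 4.12 and 3.67 FPKM in the trm4b-4-labelled libraries and 3.17 and 2.81 FPKM in wild type, and did not pass (adjusted p = 0.0593). ERF10 (AT1G03800) and ERF12 (AT1G28360) were too low to test. ERF10 had 27 and 6 fragments in the libraries labelled trm4b-4 and 16 and 15 in wild type. ERF12, which lies 2668 bases from ERF11 on chromosome 1 with no gene between, had 9 and 11, against 19 and 10.

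Group X was mostly near the limit of detection, with 2 of 6 members tested. RRTF1 (AT4G34410), a redox-responsive factor that promotes reactive oxygen formation, had 2 and 5 fragments in the libraries labelled trm4b-4, against 67 and 66 in wild type, 17.0-fold fewer per counted fragment with an interval of 8.05 to 43.2. Its levels were 0.0658 and 0.157 FPKM, against 1.83 and 2.00 FPKM, and it fell past 1.5-fold (log2 change -1.39, SE 0.131, adjusted p = 0.000110). The overlapping gene on the opposite strand, AT4G34412, went the other way, at 6.70 and 5.31 FPKM in libraries labelled trm4b-4 and 4.59 and 4.39 FPKM in wild type (log2 change 0.34, adjusted p = 0.0417). RAP2.6L (AT5G13330), which acts in tissue reunion after cutting and in stress tolerance, rose, with 6.475 and 5.60 FPKM in libraries labelled trm4b-4, against 4.27 and 4.02 FPKM in wild type (log2 change 0.45, adjusted p = 0.00769). ABR1 (AT5G64750), a repressor of abscisic acid responses induced by wounding, had 17 and 22 fragments, against 10 and 8, for a fragment ratio of 2.42 with an interval of 1.35 to 4.49. RAP2.6 (AT1G43160) had 17 and 18 fragments, against 25 and 20, for a fragment ratio of 0.867 with an interval of 0.541 to 1.38 that spans no change. ERF115 (AT5G07310), which drives stem cell replenishment in the root tip, had 2 and 1, against 4 and 2, and AT5G61890 had 2 and 4, against 1 and 1. For ERF115 and AT5G61890 the fragments were too few to show a difference.

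Group VII, the factors that the cysteine branch of the N-degron pathway removes when oxygen is present, separated into members that fell and members that did not. RAP2.3 (AT3G16770), one of the constitutively transcribed members, was at 152.5 and 147 FPKM under the trm4b-4 label, against 297 and 289 FPKM in wild type, 1.955-fold lower (log2 change -0.96, SE 0.02715, adjusted p = 9.41e-08) and past 1.5-fold. Even so it was the highest of the 53 genes in the libraries labelled trm4b-4, while in wild type it stood below ERF104. RAP2.2 (AT3G14230) was at 53.5 and 51.7 FPKM in the trm4b-4-labelled libraries and 64.5 and 60.4 FPKM in wild type (log2 change -0.24, adjusted p = 0.00251). RAP2.12 (AT1G53910), which is held at the plasma membrane and moves to the nucleus when oxygen runs low, was at 57.3 and 58.5 FPKM in libraries labelled trm4b-4, against 59.7 and 59.4 FPKM in wild type, and the 95% interval of its log2 change was -0.11 to 0.03 (adjusted p = 0.381). Both hypoxia-induced members were low. HRE1 (AT1G72360) was at 3.57 and 3.98 FPKM under the trm4b-4 label, against 3.60 and 3.42 FPKM in wild type, and the genotypes overlapped (log2 change 0.08, adjusted p = 0.556). HRE2 (AT2G47520) was at 1.53 and 1.58 FPKM in the trm4b-4-labelled libraries and 0.886 and 1.045 FPKM in wild type, and its call (log2 change 0.38, adjusted p = 0.0413) was lost when any 1 of the 4 libraries was left out (adjusted p from 0.0880 to 0.186).

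The 3 CBF genes of the cold response, which lie side by side on chromosome 4, did not change in 1 direction. CBF3 rose while CBF2 and CBF1 were lower, and the 3 were all at low levels. Their 300-base windows before the annotated start are given because these neighbours differed in direction. All are from TAIR10.1, on the minus strand, with no annotated exon, at chr4:13022997-13023296 for CBF1, chr4:13016236-13016535 for CBF2 and chr4:13019401-13019700 for CBF3. Capitals mark an evening element core in each, on the opposite strand in CBF1, and in CBF2 also a rapid stress response element and W box cores on both strands.
CBF1: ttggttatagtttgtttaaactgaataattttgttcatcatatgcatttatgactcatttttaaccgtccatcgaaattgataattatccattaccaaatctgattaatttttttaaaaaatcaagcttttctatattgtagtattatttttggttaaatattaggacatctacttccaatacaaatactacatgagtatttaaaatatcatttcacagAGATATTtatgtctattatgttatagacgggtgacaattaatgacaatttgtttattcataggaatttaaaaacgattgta
CBF2: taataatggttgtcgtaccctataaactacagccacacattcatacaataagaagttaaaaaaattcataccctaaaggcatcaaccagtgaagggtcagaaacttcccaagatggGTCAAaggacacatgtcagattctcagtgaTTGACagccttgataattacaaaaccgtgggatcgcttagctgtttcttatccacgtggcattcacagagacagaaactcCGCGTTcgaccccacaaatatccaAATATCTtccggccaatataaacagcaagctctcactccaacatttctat
CBF3: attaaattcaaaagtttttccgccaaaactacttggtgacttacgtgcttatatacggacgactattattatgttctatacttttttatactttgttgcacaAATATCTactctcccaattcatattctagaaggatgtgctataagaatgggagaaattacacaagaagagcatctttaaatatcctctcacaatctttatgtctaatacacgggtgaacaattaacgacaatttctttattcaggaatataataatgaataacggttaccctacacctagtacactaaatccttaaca

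CBF3 (AT4G25480) had 100 and 97 fragments in the libraries labelled trm4b-4, against 44 and 38 in wild type, which is 5.02 and 4.63 FPKM in libraries labelled trm4b-4, against 1.84 and 1.76 FPKM in wild type. The ratio per counted fragment was 2.68 with an interval of 2.06 to 3.51 (log2 change 1.06, SE 0.09855, adjusted p = 0.000106). It was the only member called higher past 1.5-fold (adjusted p = 0.0316), and that call was lost when any 1 library was left out, whereas the call without a fold threshold was not. CBF2 (AT4G25470) had 22 and 29 fragments, against 87 and 72, 2.80-fold fewer with an interval of 2.03 to 3.91 (log2 change -0.99, SE 0.116, adjusted p = 0.000379). CBF1 (AT4G25490) had 7 and 14 fragments, against 27 and 26, 2.26-fold fewer with an interval of 1.34 to 3.95 (log2 change -0.52, SE 0.147, adjusted p = 0.0279), and without trm4b-4 replicate 1 it was not called (log2 change -0.37, adjusted p = 0.151). For none of the 3 genes did the genotypes overlap, and of all genes tested 39.4% lay above wild type in this way and 29.0% below. The genes resemble each other, but only 2.48% of the 50-base words of the CBF1 transcript, 3.95% of those of CBF2 and 0.596% of those of CBF3 occur in another member, and the other 50 genes share none. CBF4 (AT5G51990), the drought-responsive relative, had 1 and 0 fragments in the libraries labelled trm4b-4 and 3 and 4 in wild type. DDF1 (AT1G12610), whose overexpression dwarfs plants by lowering gibberellin, had 0 and 0, against 27 and 20, and so was at least 14.1-fold lower when 3 fragments are allowed over the 2 libraries at 0. DDF2 (AT1G63030) had 0 and 0, against 0 and 2.

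**Figure D4:**
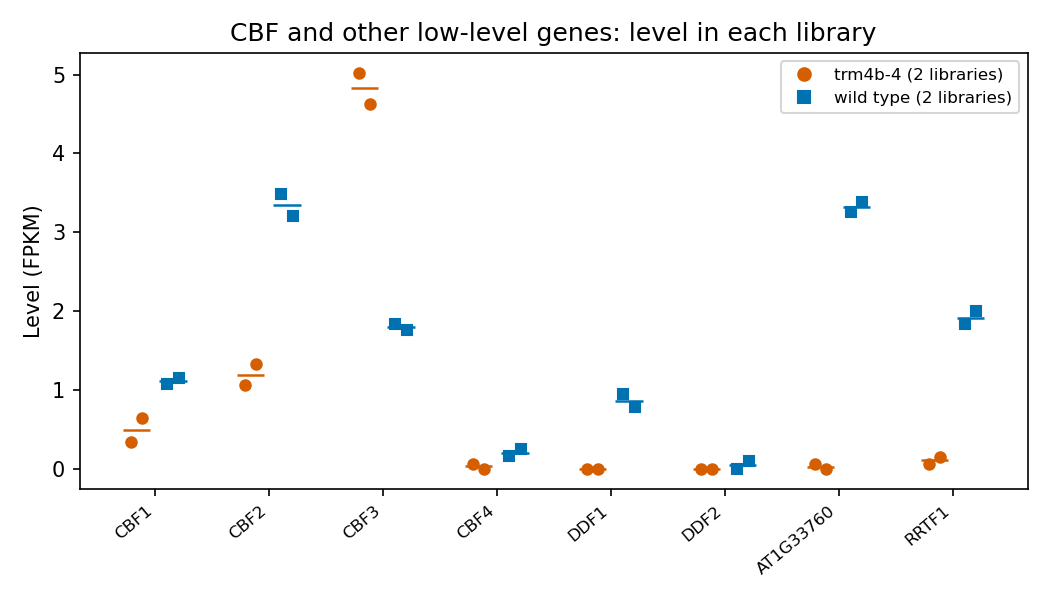
Levels (FPKM, linear axis) of CBF1 to CBF4, DDF1, DDF2, AT1G33760 and RRTF1, with circles for the 2 libraries labelled trm4b-4 and, to their right, squares for the 2 of wild type. CBF1 and CBF2 lie lower in the libraries labelled trm4b-4 and CBF3 lies higher, at 5.02 and 4.63 FPKM against 1.84 and 1.76 FPKM.

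Of the DREB2 genes, which act in drought and heat, 2 of 3 rose and none fell, against 19.2% and 15.1% of all genes tested. DREB2C (AT2G40340), a heat-inducible member, rose, with 6.92 and 6.33 FPKM under the trm4b-4 label, against 4.11 and 4.10 FPKM in wild type (log2 change 0.58, SE 0.0850, adjusted p = 0.00126). DREB2B (AT3G11020) was at 7.12 and 6.53 FPKM in the trm4b-4-labelled libraries and 5.18 and 4.985 FPKM in wild type (log2 change 0.36, adjusted p = 0.0108), a call lost with replicate 2 of wild type (log2 change 0.34, adjusted p = 0.0532) or replicate 1 of trm4b-4 (0.31, adjusted p = 0.0606) left out. It shares 1086 bases with TBL32 on the opposite strand. In all, 8 of the 53 genes overlap an annotated locus on the opposite strand, ERF105, RRTF1, DREB2B and 29 bases of CBF3 among them, and reads of such pairs cannot be told apart if strand was not used. DREB2A (AT5G05410), the main drought regulator of the clade, was at 14.0 and 11.8 FPKM in libraries labelled trm4b-4, against 10.9 and 11.4 FPKM in wild type, and did not pass (adjusted p = 0.122), although it was called without trm4b-4 replicate 2 (0.0211). All 3 genes lay above wild type in both libraries labelled trm4b-4, as did 39.4% of all genes tested.

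The remaining DREB genes held 2 of the falls past 1.5-fold that lay outside group IX. AT1G33760, an AP2/ERF gene with no symbol in the annotation used, had 1 and 0 fragments in the libraries labelled trm4b-4, against 62 and 58 in wild type, 107.6-fold fewer with an interval of 18.9 to 4286.1. That is 0.0632 and 0 FPKM, against 3.26 and 3.38 FPKM (log2 change -2.07, SE 0.1215, adjusted p = 7.49e-06). DREB26 (AT1G21910), a regulator of development and stress responses, was at 3.565 and 3.65 FPKM under the trm4b-4 label, against 22.9 and 22.6 FPKM in wild type, 6.31-fold lower (log2 change -2.37, SE 0.0645, adjusted p = 7.71e-08). Both lay below wild type in both libraries labelled trm4b-4, as did 29.0% of all genes tested. RAP2.10 (AT4G36900) was at 10.6 and 11.2 FPKM in the trm4b-4-labelled libraries and 18.3 and 17.8 FPKM in wild type (log2 change -0.68, adjusted p = 6.47e-05). TINY (AT5G25810), which links drought responses to brassinosteroid-regulated growth, was at 3.81 and 3.325 FPKM in libraries labelled trm4b-4, against 5.775 and 4.88 FPKM in wild type (log2 change -0.47, adjusted p = 0.0109), a call lost without wild-type replicate 1 (log2 change -0.37, adjusted p = 0.0737). On the other side, RAP2.9 (AT4G06746) was at 5.54 and 4.90 FPKM under the trm4b-4 label, against 3.11 and 3.82 FPKM in wild type (log2 change 0.48, adjusted p = 0.0109), but it was not called without replicate 1 of wild type (log2 change 0.37, adjusted p = 0.0619) or of trm4b-4 (0.41, adjusted p = 0.0563). CEJ1 (AT3G50260), a repressor of cold-responsive genes, was at 14.9 and 13.6 FPKM in the trm4b-4-labelled libraries and 14.9 and 13.1 FPKM in wild type, with overlapping genotypes and a 95% interval of -0.15 to 0.20 for its log2 change (adjusted p = 0.809). RAP2.1 (AT1G46768), a repressor of DREB target genes, also overlapped, at 4.745 and 3.27 FPKM in libraries labelled trm4b-4, against 2.765 and 3.62 FPKM in wild type (log2 change 0.25, adjusted p = 0.271). RAP2.4 (AT1G78080), a gene of cell dedifferentiation at wounds, stayed among the most abundant members at 106 and 107 FPKM under the trm4b-4 label, against 99.5 and 99.8 FPKM in wild type. Its small difference (log2 change 0.09, adjusted p = 0.0242) was no longer called when any 1 library was left out (adjusted p from 0.0671 to 0.0979) or under median-of-ratios rescaling (0.102).

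Cytokinin response factors act beside the cytokinin response regulators in cotyledon, leaf and root development, and some of them are induced by cytokinin. Of 6 tested, 2 were higher and none lower, against 19.2% and 15.1% of all genes tested, with a median log2 change of 0.27. CRF6 (AT3G61630), a member that delays leaf senescence, rose, with 9.71 and 9.81 FPKM in the trm4b-4-labelled libraries and 6.44 and 6.21 FPKM in wild type (log2 change 0.56, SE 0.0700, adjusted p = 0.000553). CRF2 (AT4G23750), which also acts in early embryo and root patterning, rose, with 9.04 and 8.52 FPKM in libraries labelled trm4b-4, against 5.975 and 6.39 FPKM in wild type (log2 change 0.45, SE 0.0762, adjusted p = 0.00274). These 2 genes lay above wild type in both libraries labelled trm4b-4, as did 39.4% of all genes tested. Both calls were kept in every alternative analysis. CRF5 (AT2G46310) was at 4.375 and 6.14 FPKM under the trm4b-4 label, against 3.80 and 3.60 FPKM in wild type and missed the threshold (adjusted p = 0.0522), with a wide spread in the libraries labelled trm4b-4, and it was called without trm4b-4 replicate 1 (0.00485). CRF3 (AT5G53290) was at 1.5 and 1.22 FPKM in the trm4b-4-labelled libraries and 1.09 and 1.185 FPKM in wild type (log2 change 0.14, adjusted p = 0.425). CRF4 (AT4G27950) was at 4.31 and 3.49 FPKM in libraries labelled trm4b-4, against 3.375 and 3.58 FPKM in wild type (log2 change 0.13, adjusted p = 0.419). CRF1 (AT4G11140) was at 1.03 and 1.065 FPKM under the trm4b-4 label, against 1.12 and 1.03 FPKM in wild type (log2 change -0.02, adjusted p = 0.923). For both, the genotypes overlapped.

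Known regulators of these factors were called in both directions, 9 of 21 tested, against 34.3% of all genes tested. Of 21 tested genes of the MAP kinase, ethylene, cold and N-degron pathways, 12 were not called, 4 were higher (19.0%, against 19.2% of all genes tested) and 5 lower (23.8%, against 15.1%), with a median log2 change of -0.05. Median-of-ratios rescaling gave 2 higher and 5 lower, and voom 4 higher and 8 lower. MPK3, the kinase that acts on ERF6, was at 50.55 and 49.7 FPKM in the trm4b-4-labelled libraries and 162 and 162 FPKM in wild type (log2 change -1.68, SE 0.0276, adjusted p = 5.58e-09) and was the only one past 1.5-fold. CAMTA3, a calmodulin-binding activator of CBF2, was at 19.5 and 19.4 FPKM in libraries labelled trm4b-4, against 26.0 and 26.0 FPKM in wild type (log2 change -0.40, adjusted p = 0.000274). ZAT12, a zinc finger repressor within the cold response, was at 15.1 and 13.8 FPKM under the trm4b-4 label, against 20.4 and 20.2 FPKM in wild type (log2 change -0.46, adjusted p = 0.000573). Of the 4 higher genes 3 were of the ethylene pathway, namely EBF1, an F-box protein that removes EIN3 (log2 change 0.51, adjusted p = 4.515e-05), its paralogue EBF2 (log2 change 0.13, adjusted p = 0.0329), and EIN2, the central signal transducer (log2 change 0.17, adjusted p = 0.00830). EBF2 was not called under median-of-ratios rescaling. The ethylene pathway did not move as a whole, since EIL1 was lower (log2 change -0.17, adjusted p = 0.0217). EIN3 (log2 change -0.08, adjusted p = 0.151) and CTR1 (log2 change 0.04, adjusted p = 0.497) were not called.

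Targets of the CBF and DREB2 factors mostly fell, as 11 of 14 tested were lower (78.6%, against 15.1% of all genes tested) and 1 higher (7.14%, against 19.2%). Their median log2 change was -0.50. COR47, a dehydrin, was at 268 and 262 FPKM in the trm4b-4-labelled libraries and 487 and 487 FPKM in wild type (log2 change -0.88, adjusted p = 3.26e-08). COR15B, a chloroplast protein of freezing tolerance, was at 127 and 130.5 FPKM in libraries labelled trm4b-4, against 299 and 311.5 FPKM in wild type (log2 change -1.24, adjusted p = 2.78e-08), and its reads may be shared with its near copy COR15A. ZAT10, a zinc finger repressor that also belongs to the rapid stress list, was at 23.2 and 23.5 FPKM under the trm4b-4 label, against 95.3 and 96.4 FPKM in wild type (log2 change -1.99, adjusted p = 6.19e-09). ELIP1, a light stress protein of the thylakoid, was the 1 higher gene, at 8.05 and 9.86 FPKM in the trm4b-4-labelled libraries and 5.49 and 4.66 FPKM in wild type (log2 change 0.71, adjusted p = 0.00166).

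Targets of ethylene and of defence ERFs gave 3 of 6 higher (50%, against 19.2% of all genes tested) and none lower (against 15.1%). Under each of the 3 other scalings 1 was lower (2 to 4 higher). PDF1.2 and PDF1.3 stayed below 1 FPKM throughout wild type and were tested only because of their levels in the other libraries. They could thus be called only as higher, and the count is no sign of a direction. PDF1.2, a defensin activated by ORA59, was at 4.06 and 2.87 FPKM in libraries labelled trm4b-4, against 0.433 and 0.0960 FPKM in wild type (log2 change 1.82, adjusted p = 0.0001415). PDF1.3 was at 2.03 and 1.31 FPKM under the trm4b-4 label, against 0 and 0.08495 FPKM in wild type (log2 change 1.35, adjusted p = 0.0004655). These defensins are near-identical copies under 1 FPKM in wild type, so their reads cannot be assigned with certainty. ASA1, an enzyme of tryptophan synthesis, was at 24.9 and 24.8 FPKM in the trm4b-4-labelled libraries and 22.4 and 21.8 FPKM in wild type (log2 change 0.16, adjusted p = 0.02525), and was not called under median-of-ratios rescaling. Hypoxia-responsive targets of group VII gave 1 higher and 1 lower of 8 tested (12.5% each, against 19.2% and 15.1% of all genes tested), and 1 higher and 2 lower under each of the 3 other scalings. PDC1, a pyruvate decarboxylase of fermentation, was at 3.31 and 3.51 FPKM in libraries labelled trm4b-4, against 1.92 and 2.15 FPKM in wild type (log2 change 0.54, adjusted p = 0.00486). AT3G10020 was at 135 and 133 FPKM under the trm4b-4 label, against 271 and 282 FPKM in wild type (log2 change -1.04, adjusted p = 5.79e-08). Type-A response regulators, which are induced by cytokinin, gave 3 of 8 higher (37.5%, against 19.2% of all genes tested) and none lower (against 15.1%). Their median log2 change was 0.22. The higher ones were ARR7 (log2 change 0.63, adjusted p = 0.00215), ARR6 (log2 change 0.54, adjusted p = 0.00171) and ARR4 (log2 change 0.20, adjusted p = 0.00810).

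Other AP2/ERF genes outside the 53 gave 6 lower and 3 higher of 23 tested, against 15.1% and 19.2% of all genes tested. Their median log2 change was 0.04. DREB2D, 1 of the 6, entered the test only through wild type and could thus be called only as lower. ORA47, an activator of jasmonate synthesis genes, was at 4.67 and 5.005 FPKM in the trm4b-4-labelled libraries and 30.5 and 28.3 FPKM in wild type (log2 change -2.38, adjusted p = 8.90e-08). AT1G22190 was at 21.1 and 20.6 FPKM in libraries labelled trm4b-4, against 47.25 and 46.8 FPKM in wild type (log2 change -1.14, adjusted p = 3.55e-07). AT5G07580 was at 61.25 and 59.65 FPKM under the trm4b-4 label, against 99.5 and 96.9 FPKM in wild type (log2 change -0.69, adjusted p = 1.70e-06). The higher ones were AT2G44940, at 19.5 and 18.3 FPKM in the trm4b-4-labelled libraries and 8.15 and 7.925 FPKM in wild type (log2 change 1.14, adjusted p = 4.75e-06), and TINY2, at 2.71 and 3.67 FPKM in libraries labelled trm4b-4, against 1.02 and 0.881 FPKM in wild type (log2 change 1.1, adjusted p = 0.000552). AT4G16750 was higher too, at 10.8 and 12.55 FPKM under the trm4b-4 label, against 9.48 and 8.88 FPKM in wild type (log2 change 0.31, adjusted p = 0.01955).

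**Figure D5:**
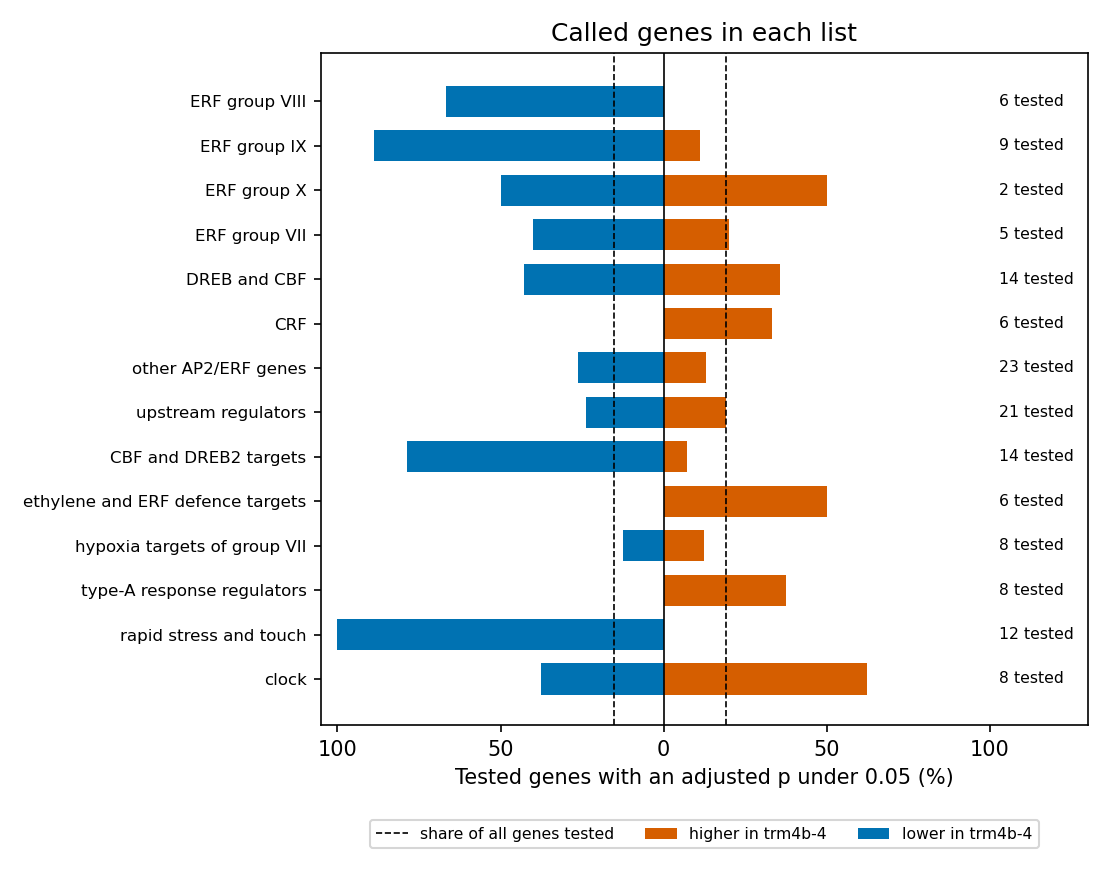
Share of tested genes (%) called higher (orange, right) and lower (blue, left) in the libraries labelled trm4b-4, for each subgroup and list, with dashed lines at the 19.2% and 15.1% of all genes tested. Rapid stress and touch genes, group IX and the CBF and DREB2 targets extend farthest to the left, and the clock genes divide into 5 higher and 3 lower.

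A list of rapid stress and touch genes, which respond within minutes to handling, moved with group IX. All 12 tested were lower (against 15.1% of all genes tested) and 11 passed 1.5-fold (against 1.74%), with a median log2 change of -2.10. The 13 genes summed to 196 and 195 FPKM in libraries labelled trm4b-4, against 1105 and 1107 FPKM in wild type (ratio 0.177). TCH4, a cell wall enzyme induced by touch, was at 13 and 13.3 FPKM in the trm4b-4-labelled libraries and 220.3 and 226 FPKM in wild type (log2 change -3.99, adjusted p = 3.47e-10). TCH3, a calmodulin-like protein, was at 46.4 and 45.2 FPKM in libraries labelled trm4b-4, against 280.4 and 277 FPKM in wild type (log2 change -2.58, adjusted p = 6.92e-10). The transcription factor MYB77 was at 12.8 and 13.5 FPKM under the trm4b-4 label, against 124 and 126 FPKM in wild type (log2 change -3.15, adjusted p = 1.54e-09). Of 8 tested clock genes 5 were higher (62.5%, against 19.2% of all genes tested) and 3 lower (37.5%, against 15.1%), or 4 and 3 under median-of-ratios rescaling. PRR9, among the 5, stayed below 1 FPKM throughout wild type and was tested only because of its levels in the other libraries. It could thus be called only as higher. CCA1, a morning gene that acts on the CBF promoters, was at 5.32 and 5.33 FPKM in the trm4b-4-labelled libraries and 2.45 and 2.25 FPKM in wild type (log2 change 0.92, adjusted p = 0.000167), and GI and PRR5 were higher too (0.33, adjusted p = 0.000261, and 0.32, adjusted p = 0.000770). TOC1 (log2 change -0.29, adjusted p = 0.000133), LUX (log2 change -0.26, adjusted p = 0.000747) and ELF4 (log2 change -0.14, adjusted p = 0.00193) were lower. The labels give no hour of harvest, and the part of handling or of the hour in the changes of the 53 genes was not tested.

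The 300-base windows before the starts of the 53 genes were searched on both strands for 5 motifs. The GCC box (GCCGCC) was in 5 windows (9.43%, against 2.39% of the windows of 18444 protein-coding genes tested), and in none of the 7 windows of clades IXa and IXb. The dehydration-responsive element core (CCGAC, which can share letters with a GCC box) was in 9 (17.0%, against 15.1%). The rapid stress response element (CGCGTT) was in 3 (5.66%, against 3.19%), none of them among the 12 genes lower past 1.5-fold. The W box core (TTGAC), bound by WRKY factors, was in 28 (52.8%, against 50.1%) and in 5 of the 7 windows of clades IXa and IXb (71.4%). The evening element core (AATATCT) was in 13 (24.5%, against 11.9%), with 6 among the 21 lower members and 4 among the 10 higher ones. CBF2 differed from CBF1 and CBF3 in also holding CGCGTT and W box cores, as shown in the windows above. The windows end at the RefSeq gene starts, which may not be those of the counted transcripts. RefSeq transcripts of CBF1, CBF2 and CBF3 have 1217, 986 and 1391 bases, whereas the lengths behind their FPKM were 946, 944 and 908 bases. Their windows may thus not cover the same part of each promoter. These matches are descriptions of letters and not of binding.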

How the data were processed

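Poly(A) RNA was made into libraries with the NEBNext Ultra Directional kit, per the labels' protocols. The submitters' processing notes list the TAIR10 build, Cuffdiff, HTSeq 0.6.1, TopHat2 2.0.12 and Cufflinks 2.1.1, without saying what each did or whether counting used strand. The deposited values are FPKM, made by the authors, 1 file per library, with the unit read from the values since the file headers name only the library. They do not tell FPKM from RPKM. All 24892 features above 0 gave whole fragments (within 2e-06 plus a relative 3e-09), and these recovered fragments served for counting intervals, for low genes and for an added count analysis with voom. The gene length behind them resolved at its smallest step for 52 of the 53 genes, so the fragments of DREB2B may be off by a whole factor.

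The values were log2 transformed from the deposited FPKM with a pseudocount of 1, filtered at 1 FPKM in at least 2 libraries, and fitted with limma 3.58.1 in R 4.3.3 with a mean-variance trend and no covariate. Tests were two-sided, with Benjamini-Hochberg adjustment over 19027 genes and a threshold of 0.05. The treat test of the same fit used a fold of 1.5. Intervals of fragment ratios are exact 95% ones from scipy 1.17.1, cover counting error only and take PCR copies as molecules, and the floor is 3 fragments over a group at 0.

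The genes and lists were chosen with earlier results of these data known, so their counts are descriptions. All 53 genes are named, with TRM4B, and from each other list up to 3 genes per direction with the smallest adjusted p, besides organ markers at or near 0. A few further genes of these lists are named for how they entered the test, or to complete the ethylene pathway. Genes overlapping a member were named after their values were seen. Replicate numbers did not pair the libraries (correlation of deviations -0.0434 over 19027 genes). Promoter windows and names came from RefSeq TAIR10.1, where all 53 genes were found. The windows were read from its genome instead of a table of promoters, a choice made after the files were seen. Alternatives were other pseudocounts, filters and scalings, no trend, a replicate block, voom, and each library left out.

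The fit was tested on simulated libraries of the comparison of trm4b-4 with wild type, in which 199 of 18888 tested genes were changed. It recovered 81.8% at a 1.5-fold change, 92.5% at a 2-fold change and 100% at a 4-fold change, and 21 of 203 calls (10.3%) were false, above the nominal share.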

Additional observations from a re-analysis of the deposited data

How the results depend on the processing

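Of 525 values of single members under the alternatives, 491 kept their direction and call, 24 lost the call, 5 gained it and 5 reversed. The reversals were CEJ1, at -0.002 under median-of-ratios rescaling, -0.012 with voom, and between -0.061 and 0.116 with 1 library left out, and CRF1, between -0.048 and 0.01 with 1 library left out. None of these was called. The 1 member higher past 1.5-fold, CBF3, became 0 with a pseudocount of 5, no filter, a filter at 5 FPKM, quantile normalization and each library left out (0 to 0). Members lower past 1.5-fold numbered between 9 (pseudocount of 5) and 13 (pseudocount of 0.1, voom). Over all genes, 54 were higher past 1.5-fold with a pseudocount of 5, against 120 without it. Calls of 5 higher and 15 lower members were kept under every alternative, including tests at 5 FPKM, where 27 members were tested.

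Median-of-ratios rescaling moved the split of all calls to 2967 higher and 3339 lower, and voom to 3507 and 3789, against 3648 and 2882, while members were 8 and 21, and 9 and 21, against 10 and 21. A replicate block gave 10 higher and 21 lower members, where HRE2 lost its call (adjusted p = 0.0589) and CRF5 gained one (0.0332). HRE2 was also lost under median-of-ratios rescaling (0.0503), quantile normalization (0.0630) and voom (0.120), ORA59 without a filter (0.0527) and without a trend (0.0528), and RAP2.4 without a trend (0.169) and with voom (0.0752). The causes were not tested. With 2 libraries a genotype and few fragments, differences of the 11 untested members were mostly not detectable at this depth.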
